A study of Rattus norvegicus with 8 samples.

Results

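LGALS3 and LGALS9, which encode galectin-3 and galectin-9, were followed in all 8 rat genome arrays of GH3 and MMQ cells. They are 2 of the 28295 probe sets with deposited values, and shares of all probe sets refer to these. The genes were chosen by measured values. The study listed both among the genes higher with bromocriptine (BRC) in GH3 cells, and each was located by its printed fold of the GH3 BRC array over the GH3 control array. For each fold, exactly 1 probe set matched within a relative tolerance of 1e-06, with the next nearest probe set 0.00133 away for LGALS3 and 0.000558 away for LGALS9. LGALS3 was also listed for cabergoline (CAB) in MMQ cells, and that fold led to the same probe set. The gene names that the array annotation gives to the rows could not be used. None of the 20 probe sets located in this way carried the name of its gene, and for 3971 genes with several annotated probe sets the median correlation of such a pair over the 8 arrays was 0.0179. For LGALS9 the annotation holds 1 probe set for Lgals9 alone and 1 shared by Lgals9 and Lgals5, and which of these was matched was not determined.

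GH3 and MMQ are rat pituitary tumour lines. GH3 cells secrete prolactin and growth hormone, and MMQ cells secrete prolactin. Each line gave a control array and arrays with BRC, CAB or the 2 drugs together (CAB+BRC), so that every condition has 1 array and no replicate. BRC and CAB are ergot-derived dopamine agonists. The labels describe both drugs as dissolved in DMSO and brought to 50 μM with 0.2% DMSO, and do not give the dose of each drug in the combination or what the control cells received. The text of the study gives 48 h for the GH3 BRC and MMQ CAB arrays, and no time was found for the other treated arrays. The culture medium differed between the lines, so line and medium cannot be told apart. The RNA came from whole cultures, in which a change in the share of cells that express a gene and a change in RNA per cell cannot be told apart. Array medians lay between 45.9 and 49.9 intensity units. The defining markers of the lines, such as prolactin and growth hormone, could not be checked because the row names did not go with the values.

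Galectins are lectins that bind β-galactoside sugars on glycoproteins and glycolipids, both outside the cell and, after damage to endosomes or lysosomes, on sugars exposed to the cytosol. Galectin-3 is the chimera-type member, with a single carbohydrate recognition domain and a flexible amino-terminal tail through which it oligomerises. In the pituitary it is known from lactotroph and corticotroph cells and their tumours. Galectin-9 is a tandem-repeat member, with a pair of carbohydrate recognition domains joined by a linker, and is induced by interferon in many cell types.

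The promoter table held an entry for Lgals9 and none for Lgals3, so a stretch in front of Lgals9 alone is shown, for its match to a known motif. The 250 bases before the start given in that entry, 64428070 on the minus strand of build GRCr8, were searched. The 30 bases around the single match to the AP-1 site TGANTCA, the motif of Fos and Jun proteins, lie at chr10:64428092-64428121, and capitals mark the match. It ends 34 bases before that start. RefSeq places the outer end of the Lgals9 gene at 64428249, so the match and most of the searched window lie inside the annotated gene. Whether the match is exonic or intronic in a longer transcript was not determined. The bases before that outer end were searched only as far as the window reaches.

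Lgals9: ctcctccccgtTGAGTCAgtgccaagtagc

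On both strands, 6.34% of the 33469 rat promoter windows of this length held TGANTCA. The searched window held no GCGTGGGCG or GCGGGGGCG (forms of the EGR1 motif, in 0.478% and 2.45% of windows), no CACGTG (the E-box, 5.59%), no TTCNNNGAA (the GAS motif of STAT proteins, 7.67%) and no TATAAA (12.9%). The AP-1 motif was searched after the sequence had been seen.

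The intensity of LGALS3 in GH3 cells was 124 on the control array, and BRC, CAB and CAB+BRC gave 425, 305 and 418. All 3 treated GH3 arrays lay above the control. In MMQ cells LGALS3 was at 146 on the control array, and BRC, CAB and CAB+BRC gave 171, 1020.5 and 865. The MMQ arrays thus formed a low pair without CAB and a high pair with CAB, and BRC alone stood near the control. Ordered over all 8 arrays, the controls of both lines and MMQ BRC were lowest, the treated GH3 arrays came next, and the MMQ arrays with CAB were highest. Only 1 step between neighbours in this order was at least 2-fold, from GH3 BRC to MMQ CAB+BRC (2.03-fold).

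The intensity of LGALS9 in GH3 cells was 31.2 on the control array, and BRC, CAB and CAB+BRC gave 154, 127 and 144. In MMQ cells it was at 11.6 on the control array, and the same treatments gave 15.4, 13.9 and 14.8. The highest MMQ value was below the GH3 control. The share of all probe sets that separate the lines in this way was not counted, and the GH3 control and BRC arrays chose the gene. Between 15.4% and 24.6% of all probe sets were dimmer than LGALS9 on the MMQ arrays, against 41.0% on the GH3 control array and 68.1% to 71.8% on the treated GH3 arrays. No detection calls were used, so whether LGALS9 was above background in MMQ cells was not determined.

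**Figure D1:**
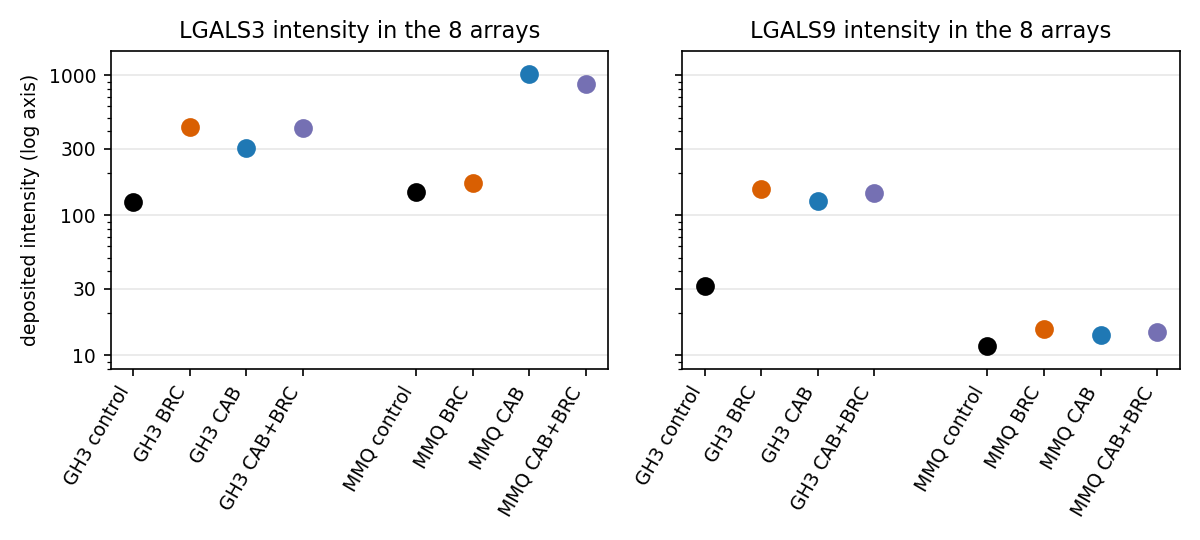
Deposited intensity (log axis) of LGALS3 (left) and LGALS9 (right), 1 point per array, with the 4 GH3 arrays to the left of the 4 MMQ arrays in each panel (black control, orange BRC, blue CAB, purple CAB+BRC). LGALS3 is highest in the MMQ arrays with CAB (1020.5 and 865), and LGALS9 stays between 11.6 and 15.4 in all MMQ arrays.

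In GH3 cells both galectins were higher than in the control with either drug and with the combination. The differences with BRC are those that identified the genes, 1.77 for LGALS3 and 2.27 for LGALS9 on the scale of log2(intensity + 1), and are given without a test. In that pair 1.00% of all probe sets were at least 2-fold higher. With CAB the log2 differences were 1.29 for LGALS3 and 1.99 for LGALS9, where 1.37% of all probe sets were at least 2-fold higher. With CAB+BRC they were 1.74 and 2.17, where 0.937% were at least 2-fold higher. These 3 comparisons share the GH3 control array, which the choice of the genes also used, so they are not independent of each other.

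The treated GH3 arrays were close to each other for both genes. The highest exceeded the lowest by 1.40-fold for LGALS3 and by 1.21-fold for LGALS9. The comparison of CAB+BRC with CAB uses neither of the arrays that chose the genes. It gave a log2 difference of 0.45 for LGALS3 and 0.18 for LGALS9, and neither was at least 2-fold higher, in a pair where 0.0459% of all probe sets were. Among all probe sets, 3.51% had a larger difference than LGALS3 and 23.4% a larger one than LGALS9. Against BRC, CAB+BRC differed by -0.03 for LGALS3 and by -0.10 for LGALS9 (0.0954% of all probe sets at least 2-fold higher). CAB differed from BRC by -0.48 for LGALS3 and by -0.28 for LGALS9 at the same labelled dose (0.474% at least 2-fold higher). Of all probe sets, 96.3% had a larger difference than LGALS3 there and 85.4% a larger one than LGALS9. For CAB+BRC against BRC these shares were 53.5% and 70.5%. Both pairs contain the GH3 BRC array that chose the genes, so nothing is read from the shares. The step from control to any treated array was larger than any difference among the treated arrays. Every such step uses the GH3 control array, which took part in choosing the genes. That choice favours large steps, so the comparison is a description.

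The combination in GH3 cells fell short of the sum of the single drugs. If the log2 differences of BRC and CAB had added, LGALS3 would have reached an intensity of 1040 in place of 418, and LGALS9 614 in place of 144. The departures were -1.31 for LGALS3 and -2.09 for LGALS9 on the log2 scale. They subtract the difference between the GH3 BRC and control arrays by which the genes were chosen, which makes a negative value likely, and they are not ranked among all probe sets. In MMQ cells the departures were -0.47 for LGALS3 and -0.30 for LGALS9, where 5.32% and 14.0% of all probe sets had a lower one. For LGALS3 this subtracts the difference between the MMQ CAB and control arrays, for which the study also listed the gene. That makes a negative value likely, so nothing is read from the LGALS3 share.

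LGALS3 in MMQ cells was over 2-fold higher on both arrays with CAB and within 2-fold of the control with BRC alone. CAB against control gave a log2 difference of 2.80, the 7th highest of all probe sets, in a pair where 1.14% were at least 2-fold higher. The study listed LGALS3 by the fold of that pair, so nothing is read from its place there. CAB+BRC against BRC, which shares no array with that pair, gave 2.33, with 0.922% of all probe sets at least 2-fold higher and 0.0636% above LGALS3. CAB+BRC against control gave 2.56 (1.43% at least 2-fold higher). BRC against control gave 0.23 (0.127% at least 2-fold higher). CAB+BRC against CAB gave -0.24 (0.640% at least 2-fold higher), with 78.6% of all probe sets above LGALS3. CAB against BRC gave 2.57 (1.12% at least 2-fold higher).

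LGALS9 in MMQ cells was nowhere 2-fold apart. Its log2 differences from the MMQ control were 0.38 for BRC, 0.24 for CAB and 0.32 for CAB+BRC. Between the treated MMQ arrays it moved by 0.08 (CAB+BRC against CAB), -0.06 (CAB+BRC against BRC) and -0.14 (CAB against BRC). At intensities this low, adding 1 before taking the logarithm makes the log2 differences smaller than those of the intensities themselves.

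**Figure D2:**
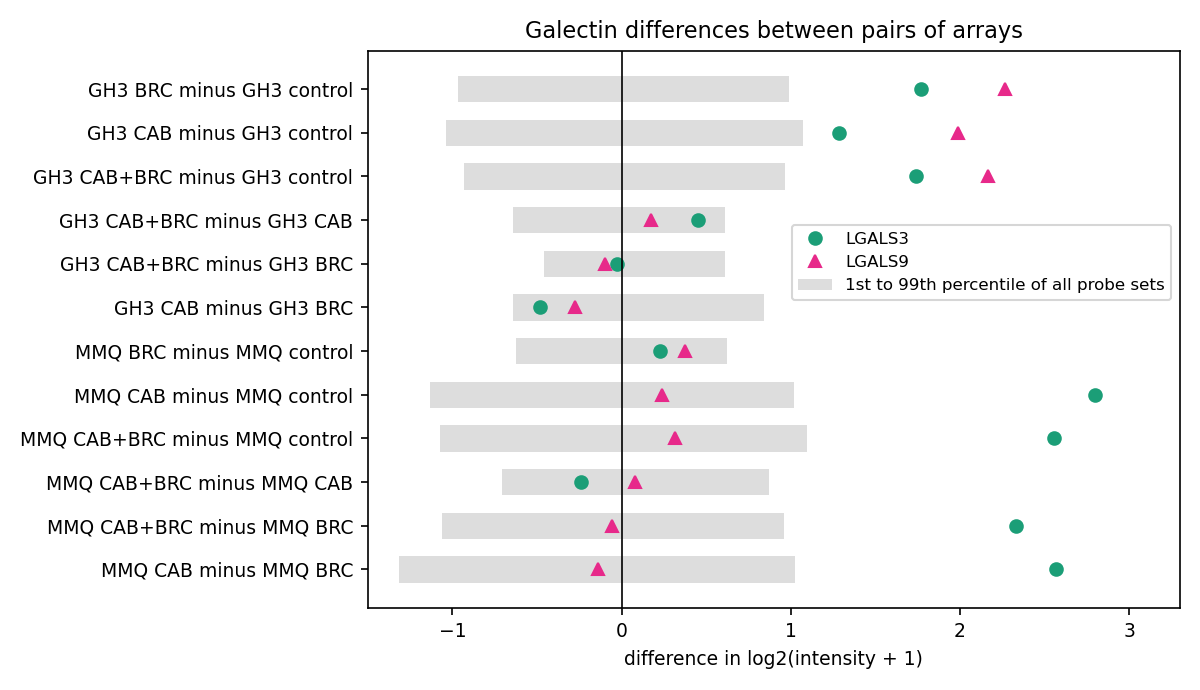
Difference in log2(intensity + 1) between the arrays of each pair for LGALS3 (green circles) and LGALS9 (pink triangles), with grey bars from the 1st to the 99th percentile of all 28295 probe sets. Both genes lie to the right of the bars in the 3 GH3 pairs with the control, and only LGALS3 does in the 4 MMQ pairs that compare CAB or CAB+BRC with control or BRC.

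For the MMQ cells, the drug effects were tested with limma in an additive model of CAB and BRC within each line, fitted to all 8 arrays and all probe sets. The departure of each CAB+BRC array from additivity supplies the 2 residual degrees of freedom. With no replicates, an interaction of the drugs and variation between cultures cannot be told apart in that departure. The intervals and p-values therefore do not measure variation between replicate cultures. The departure in GH3 cells contains the GH3 control and BRC arrays that chose the genes and made up 88.8% of the residual variance of LGALS3 and 98.0% of that of LGALS9. The intervals and p-values of the 8-array fit therefore draw on those arrays, and those of a fit to the 4 MMQ arrays alone, with 1 residual degree of freedom, are given beside them. CAB raised LGALS3 by a log2 effect of 2.56 (standard error 0.280, 95% interval 1.92 to 3.21, adjusted p = 0.00400 in limma), while 1.37% of all probe sets were called higher with CAB. The study had listed LGALS3 for CAB in MMQ cells on these same arrays, so this call is not independent evidence. With MMQ arrays only, the same effect had a standard error of 0.129 and an interval of 2.27 to 2.86 (adjusted p = 2.06e-05 in limma). From the MMQ departure of LGALS3 alone the standard error would be 0.233. The narrower interval thus rests on limma's moderation of each spread towards that of all probe sets. LGALS9 had a CAB effect of 0.09 (95% interval -0.84 to 1.02, adjusted p = 0.956 in limma). With MMQ arrays only, the interval was -0.22 to 0.40 (adjusted p = 0.785 in limma). A 2-fold rise lies inside the first interval and outside the second.

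BRC effects in MMQ cells were -0.00413 for LGALS3 (95% interval -0.65 to 0.64, adjusted p = 0.997 in limma) and 0.23 for LGALS9 (95% interval -0.70 to 1.16, adjusted p = 0.852 in limma). With MMQ arrays only, the intervals were -0.30 to 0.29 for LGALS3 and -0.08 to 0.54 for LGALS9, and neither effect passed the threshold. For BRC limma called 0% of the probe sets in either direction, with 3647 at an unadjusted p under 0.05. The fitted effects of CAB and BRC on LGALS3 in MMQ cells differed by 2.57 (95% interval 1.65 to 3.48, adjusted p = 0.0286 in limma), where 0.509% of all probe sets were called higher with CAB than with BRC. In this model that estimate equals the MMQ CAB array minus the MMQ BRC array. The study listed LGALS3 from the MMQ CAB array, so this call is not independent evidence either. For LGALS9 the difference between the drugs was -0.14 (95% interval -1.45 to 1.18, adjusted p = 0.941 in limma). With MMQ arrays only, the intervals were 2.15 to 2.99 for LGALS3 (adjusted p = 0.000261 in limma) and -0.57 to 0.30 for LGALS9 (adjusted p = 0.731 in limma). These are 2 tests of a drug difference, 1 per gene, with p-values adjusted over all probe sets.

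The LGALS3 calls were lost when any one of the 4 MMQ arrays was left out of the 8-array fit. The CAB effect was 2.33 without the MMQ control array (adjusted p = 0.130 in limma) or without the MMQ CAB array (adjusted p = 0.131), and 2.80 without the MMQ BRC array (adjusted p = 0.0750) or without the MMQ CAB+BRC array (adjusted p = 0.0756). In those fits the MMQ arrays leave no residual, and the gene's own spread is the GH3 departure alone, which contains the arrays that chose the genes. The MMQ line is assumed to depart from additivity to a like degree, and the p-values of these fits are not independent of the choice. Without any one of the GH3 arrays, where the gene's own spread comes from the MMQ arrays, the adjusted p of the CAB effect lay between 1.30e-05 and 1.46e-05. The call of CAB against BRC was also lost without any one of the MMQ arrays (adjusted p = 0.0728 to 1.00), with effects of 2.10 to 3.03. The residual standard deviation of LGALS3 before moderation was 0.493, against 0.280 after it, and that of LGALS9 0.746 against 0.402, so moderation lowered both. From the MMQ departures alone the residual standard deviations would be 0.233 for LGALS3 and 0.150 for LGALS9, below the standard errors of the 8-array fit. They are above the standard errors of the CAB effect with MMQ arrays only, 0.129 and 0.134, which moderation also lowered.

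**Figure D3:**
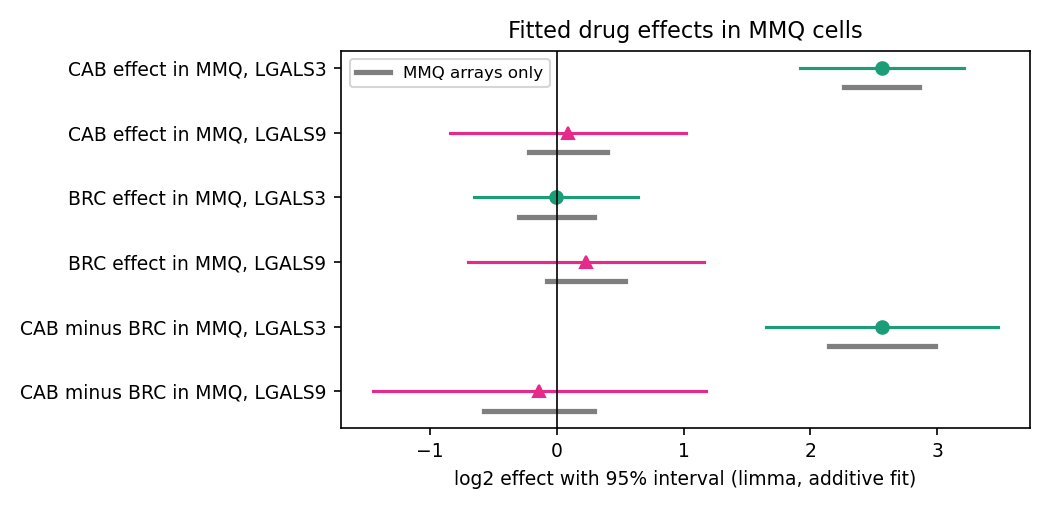
Log2 effects of CAB and BRC and their difference in MMQ cells from the additive limma fit of 8 arrays, with 95% intervals, for LGALS3 (green circles) and LGALS9 (pink triangles), and below each, as a thick grey line, the interval from the 4 MMQ arrays only. The intervals of LGALS3 for CAB (1.92 to 3.21 from 8 arrays) and for CAB minus BRC (1.65 to 3.48) lie above 0 in both fits, and all others span 0 in both fits. The MMQ-only intervals are the narrower of each pair.

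Between the lines, the controls differed little for LGALS3, by -0.23 in log2 for GH3 minus MMQ. With BRC the GH3 array was higher by 1.31 (8.80% of all probe sets at least 2-fold higher in GH3). With CAB it was lower by a difference of -1.74 (7.99% at least 2-fold lower in GH3), and with CAB+BRC by -1.05 (9.03% at least 2-fold lower). GH3 was thus the line with the higher LGALS3 level in the BRC pair only. That pair contains the GH3 BRC array that chose the gene, so nothing is read from it. For LGALS9 GH3 was higher in every condition, by 1.35 in the controls (8.96% of all probe sets at least 2-fold higher), 3.24 under BRC (8.80%), 3.10 under CAB (10.2%) and 3.20 under CAB+BRC (9.42%). The share of probe sets above LGALS9 in these pairs was 5.62%, 1.12%, 1.40% and 1.17%, in that order. The control and BRC pairs contain the GH3 arrays that chose the gene, so nothing is read from their shares. Whether a drug effect differed between the lines was not tested, because the GH3 side contains the arrays that chose the genes.

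The patterns of both galectins were set beside those of the 19 other identified genes on the log2 scale, after subtracting the mean of each line. Likeness was measured as Pearson's r over the 8 arrays. The study listed these genes from GH3 BRC against control or MMQ CAB against control, so 4 of the 8 arrays took part in choosing them. That choice favours a high r between listed genes. The shares of all probe sets given with r below are therefore a description, and nothing is read from them. LGALS3 and LGALS9 had an r of 0.52, below the nearest genes of either.

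Nearest to LGALS3 was GPNMB, a transmembrane glycoprotein of endosomes and lysosomes, with an r of 0.97. GPNMB had intensities of 15.9, 53.4, 24.0 and 47.6 in the GH3 control, BRC, CAB and CAB+BRC arrays and 233, 454, 2267 and 2237 in the same order of MMQ arrays. Like LGALS3 it was highest in the MMQ arrays with CAB. Of all probe sets, 0.219% were at least as alike to LGALS3. The next were AP1S2, a subunit of the clathrin adaptor AP-1 (r = 0.94), and RSAD2, an interferon-induced antiviral gene (r = 0.90). RSAD2 was at 29.6, 39.6, 33.7 and 30.9 in the GH3 control, BRC, CAB and CAB+BRC arrays, and so moved less there than LGALS3.

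Nearest to LGALS9 was BLNK, which couples the B cell receptor to its signalling enzymes, with an r of 0.93 and 0.735% of all probe sets at least as alike. BLNK was at 59.7, 259, 176 and 235 in the GH3 control, BRC, CAB and CAB+BRC arrays and at 7.10 to 10.3 in MMQ cells, and so was likewise dim in all MMQ arrays. GAA, the lysosomal enzyme that breaks down glycogen, followed with an r of 0.90 and ASTN1, a neuronal adhesion protein, with 0.83. GAA was not dim in MMQ cells, at 297 to 537.

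**Figure D4:**
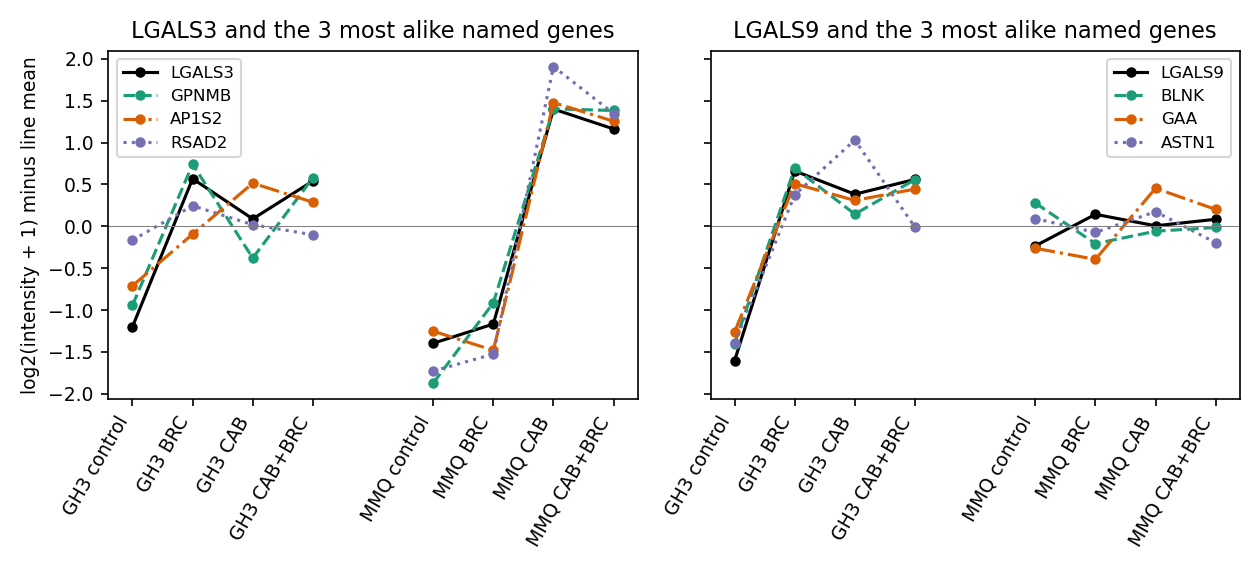
Log2(intensity + 1) minus the mean of the 4 arrays of the line for LGALS3 (left) and LGALS9 (right), each as a solid black line with the 3 most alike named genes in colour. The galectin lines start at the GH3 control as their lowest GH3 point, and LGALS3, GPNMB, AP1S2 and RSAD2 separate the MMQ arrays with CAB from those without.

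Among the 6 identified genes of lysosomes, vesicle traffic and autophagy (GAA, DPP7, GPNMB, AP1S2, ATP6V1G3 and SQSTM1), BRC in GH3 cells gave 3 at least 2-fold above the control and 1 at least 2-fold below it, where both galectins were higher. In that pair 1.00% of all probe sets were higher by that much and 0.912% were lower by that much. Their median log2 difference was 1.09, against 0.01 over all probe sets. With CAB in MMQ cells, where LGALS3 was higher and LGALS9 was within 2-fold of the control, 4 were at least 2-fold higher and 1 lower, with a median of 1.48 against 0.02, and with 1.14% of all probe sets higher and 1.41% lower by that measure. With BRC in MMQ cells, where neither galectin was 2-fold apart, 0 were at least 2-fold higher and 1 was lower, with a median of 0.08 against -0.01, and with 0.127% of all probe sets higher and 0.145% lower. ATP6V1G3, a subunit of the proton pump of lysosomes, was the lower gene each time. The study chose these genes by GH3 BRC or MMQ CAB against control, so the counts in those pairs are a description and nothing is read from their excess over all probe sets. MMQ BRC against control shares the MMQ control array with that choice. In pairs without a shared array, GH3 CAB+BRC against CAB gave 0 at least 2-fold higher or lower (median -0.05 against 0.01). There 0.0459% of all probe sets were higher. MMQ CAB+BRC against BRC gave 2 higher and 1 lower (median 0.73), with 0.922% of all probe sets higher.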

How the data were processed

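RNA of GH3 and MMQ cells was hybridised to 8 Affymetrix rat genome arrays, 1 per condition. The authors obtained signals with Affymetrix's Command Console software and deposited 1 linear intensity per probe set and array. Probe summarization, background correction and scaling between arrays were not given in the sources used here. No depth applies to arrays, and their number limits the precision.

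Members and lists were chosen with earlier results of these data known. Genes were located by the fold printed for them in the study, within 1e-06. Row names were not used. Named genes were both galectins and the 3 identified genes most alike to each. Results on some genes are not reported here.

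Intensities were converted to log2(intensity + 1). At least 2-fold apart refers to the ratio of intensities. limma 3.58.1 (R 4.3.3) fitted a line mean and, in each line, a CAB term and a BRC term to all 28295 probe sets, with moderated spreads following a trend in intensity (lmFit, eBayes) and two-sided p-values adjusted by Benjamini-Hochberg with a threshold of 0.05. The fit was tested on simulated data. Alternatives were a constant of 16 in place of 1, quantile normalization, median centring, no trend, bright probe sets only, MMQ arrays only, and leaving out each array.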

Additional observations from a re-analysis of the deposited data

How the results depend on the processing

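With 1 array per condition, the fitted effects depend on the assumption that CAB and BRC add on the log2 scale, and every array carries weight. The LGALS3 calls in MMQ cells for CAB and for CAB against BRC held with log2(intensity + 16), with quantile normalization, with arrays centred on their medians, without an intensity trend, with bright probe sets only and with MMQ arrays only. Leaving out single arrays moved the CAB effect on LGALS3 between 2.33 and 2.80 and CAB minus BRC between 2.10 and 3.03, and both calls were lost without any one of the MMQ arrays, in fits whose spread for the gene itself is the GH3 departure with the arrays that chose the genes. LGALS9 was not tested among bright probe sets only, because its mean is below the median of all probe sets, and it passed the threshold in none of the other fits.

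Effects near 0 changed sign. The BRC effect on LGALS3 in MMQ cells was 0.0376 after median centring and lay between -0.24 and 0.23 with single arrays left out. The CAB effect on LGALS9 lay between -0.0593 and 0.24, and CAB minus BRC for LGALS9 between -0.44 and 0.16. With 1 MMQ array left out, each CAB or BRC effect is the difference between 1 pair of MMQ arrays. For LGALS9 the CAB effect of -0.0593 is CAB+BRC against BRC, and that of 0.24 is CAB against control. The cause of the differences between such pairs, and of the change with median centring, was not tested.

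The number of probe sets called for CAB in MMQ cells was 777, and was 2232 with MMQ arrays only and between 38 and 2259 with single arrays left out. For BRC it was 0, 99 with MMQ arrays only and between 0 and 56 with single arrays left out. For CAB minus BRC it was 391, 240 among bright probe sets only, 1618 with MMQ arrays only and between 0 and 1681 with single arrays left out. With log2(intensity + 16) the LGALS9 differences from the GH3 control were smaller, 1.85 with BRC and 1.76 with CAB+BRC, as was that between the controls of the lines, 0.77.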
